A study of Glycine max with 108 samples.

Results

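IFS1 and IFS2 are the isoflavone synthase genes of soybean, listed in the deposited tables as GLYMA_07G202300 and GLYMA_13G173500. They were chosen by name and ID, not by any measured value, though with earlier results of these data known. They are 2 of the 57147 features in each table. Isoflavone synthase is a cytochrome P450 of the endoplasmic reticulum that turns flavanones into isoflavone precursors by moving an aryl ring from one carbon to its neighbour. In soybean the products lead to daidzein and genistein, which act as root signals to nodulating Bradyrhizobium. Daidzein is also the precursor of the glyceollin phytoalexins, antimicrobial compounds made under attack. The RefSeq gene table for the assembly Glycine_max_v4.0 lists the symbol IFS1 on chromosome 7 and IFS2 on chromosome 13, and gives each symbol as a synonym of the other gene, so the names here follow the IDs above.

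RNA-seq was run on leaves and flowers of soybean (Glycine max, cultivar Magellan) at 31 days, with 5 to 7 plants pooled per sample, to ask how plants respond when several stresses meet. There were 18 treatments per tissue with 3 samples each, 108 samples in all. All plants, controls included, grew from seeds coated with Bradyrhizobium japonicum inoculum. In 4 groups a column only repeated the average of its 2 partners and was left out, so that 53 leaf and 51 flower libraries remained. These groups, the control in leaf and acidity, the 4-stress combination and water deficit in flower, have n = 2, and the others n = 3.

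The control had no stress and was irrigated at 100% of the transpirable water. Salinity was 15 mM NaCl given once at the start, acidity was a nutrient solution at pH 4, and low phosphate was a reduction of phosphate by 90%. Water deficit was irrigation at 30% of that amount, and cadmium was 300 µM CdCl2. The control, the first 4 stresses alone, and all their pairs, triples and the 4-stress combination form a complete factorial of 16 treatments. Cadmium was given alone and on top of the other 4. The pH and the size of the phosphate reduction are stated for those stresses alone, so the same levels in combinations are assumed.

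Levels are FPKM, mapped fragments per length and per library size, so the 2 genes can be compared within a library. FPKM summed to between 617268 and 713376 per leaf library and between 611857 and 680481 per flower library. Relative depth, read from the step size of the lowest values, spanned 0.865 to 1.23 of the median in leaf and 0.895 to 1.2 in flower. The tissues were normalized in separate tables, so no level is compared between leaf and flower. Soybean IFS1 and IFS2 are close copies, and how reads that match both were counted is not given in the sources used here, so the level of either gene may hold reads of the other. In bulk tissue, fewer cells of a type and less RNA per cell cannot be told apart.

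In leaves, IFS2 was highest when salinity and acidity were combined, where its level was about 11.0 times that of the control. The control libraries held 15.88 and 16.19 FPKM, and the libraries of salinity with acidity held 167.5, 190.2 and 170.2 FPKM (mean 176.0 ± 12.39, SD, n = 3). Neither stress alone gave such a level: salinity alone gave 16.43, 16.58 and 17.55 FPKM, and acidity alone gave 12.08, 11.60 and 9.951 FPKM. The salinity libraries thus lay just above the controls and the acidity libraries below them, while every library of the pair lay far above both. The change of the pair against control was 3.37 on the log2(FPKM + 1) scale (SE 0.089, limma, adjusted p = 1.24e-30). In that comparison 70.1% of the 28678 leaf features tested were called and 37.8% were called higher, and the change of IFS2 was larger than that of 98.8% of features.

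Next in order came the 5-stress combination, with IFS2 at 119.1, 118.4 and 126.7 FPKM, and the 4-stress combination, with 97.43, 85.73 and 92.95 FPKM. Salinity, acidity and water deficit together gave 50.58, 49.40 and 50.94 FPKM. These 3 groups and the pair of salinity with acidity overlapped neither with each other nor with any other leaf group. They hold salinity and acidity in common, but so does the triple of salinity, acidity and low phosphate, whose libraries held 27.56, 28.71 and 31.0 FPKM. Acidity with water deficit, which has no salinity, stood between these at 41.25, 39.92 and 37.72 FPKM.

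The remaining leaf groups had mean IFS2 levels from 34.86 ± 0.47 FPKM for salinity with low phosphate down to 11.21 ± 1.12 FPKM for acidity alone (SD, n = 3). Among the 17 pairs of neighbours in the order of means, the libraries of 8 overlapped, so much of the lower part of the order was not resolved. Cadmium alone gave 17.34, 18.17 and 19.94 FPKM, and water deficit alone gave 15.4, 12.91 and 12.87 FPKM. Both changes against control missed the threshold, at 0.19 and -0.21 log2 units (limma, adjusted p = 0.0724 and 0.0725), though that of cadmium passed it with median ratio scaling, at 0.30.

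Against control, limma called leaf IFS2 higher in 11 of the 17 treatments and lower in 3, at a Benjamini-Hochberg adjusted p under 0.05 over all features. Over the 17 comparisons together, 20.2% of all feature tests were called higher and 25.2% lower. The 3 treatments without a call were salinity, water deficit and cadmium, each alone. The 3 lower calls were acidity (-0.48), low phosphate (-0.38) and acidity with low phosphate (-0.22). No such call was made when the treatment and control libraries were fitted alone, with the same changes (limma, adjusted p = 0.092, 0.0583 and 0.0815). That of acidity remained without replicate 1 or without replicate 2, and the other 2 did not. The smallest rises, 0.25 each for water deficit with low phosphate and for the triple that adds acidity, also lost their calls when some replicates were left out. All 17 comparisons share the same 2 control libraries. IFS2 libraries lay wholly above the controls in 13 treatments and wholly below in 4. The same count over all features was not made, and 3 libraries separate easily from 2.

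**Figure D1:**
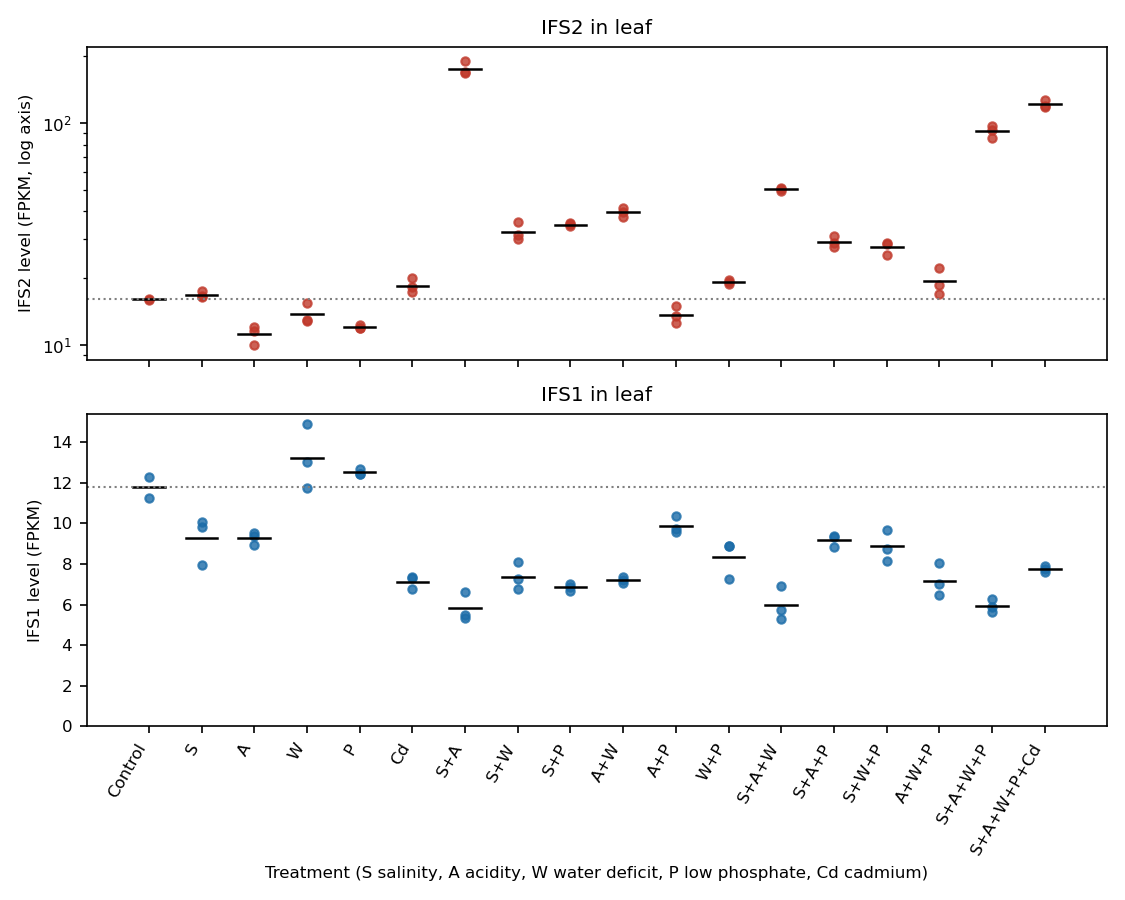
Levels of IFS2 (upper panel, log axis) and IFS1 (lower panel) in FPKM for the 18 leaf treatments, with 1 point per library, a black line at the group mean and a dotted line at the control mean. IFS2 reaches a mean of 176.0 FPKM under salinity with acidity, where IFS1 has its lowest mean, 5.812 FPKM.

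IFS1 in leaves moved over a narrower range and in the other direction. Its control libraries held 12.29 and 11.24 FPKM, against 6.613, 5.341 and 5.482 FPKM under salinity with acidity, the lowest of the group means. The change was -0.91 log2 units (SE 0.099, limma, adjusted p = 1.03e-10), and no library of the pair reached the controls. The 4-stress combination was close to it, at 6.296, 5.653 and 5.899 FPKM. The highest group was water deficit alone, with 14.91, 11.75 and 13.02 FPKM, which overlapped with the controls.

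Across the 18 leaf group means, IFS1 varied 2.28-fold and IFS2 15.7-fold. IFS1 was called lower than control in 14 of 17 treatments and higher in 0, against the 25.2% and 20.2% of all feature tests. The calls for salinity alone (-0.32) and acidity alone (-0.31) were lost with median ratio scaling and with only 2 groups fitted, and that of salinity, acidity and low phosphate (-0.33) with median ratio scaling. The 3 treatments without a call were water deficit, low phosphate and acidity with low phosphate, with changes of 0.15, 0.08 and -0.23 (limma, adjusted p = 0.275, 0.856 and 0.0562). IFS1 lay wholly below the controls in 15 treatments, above in 1 and overlapped in 1, again without the same count over all features. Neighbours in the order of IFS1 levels mostly overlapped, in 15 of 17 cases.

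The means of the 2 genes ran in opposite directions over the 18 leaf treatments, with Pearson r = -0.727 and Spearman rho = -0.81. These are descriptions over treatments whose values come from the same libraries. In flowers the corresponding values were -0.316 and -0.0217.

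The factorial gives the mean effect of each of 4 stresses over the 8 backgrounds formed by the other 3, and does not rest on the control libraries alone. On leaf IFS2, salinity had an effect of 1.33 log2 units (SE 0.029, limma, adjusted p = 2.1e-31) and acidity 0.82 (adjusted p = 5.6e-24). Salinity was called upward in 38.8% of all features and acidity in 32.3%. Water deficit raised IFS2 by 0.38 (limma, adjusted p = 2.14e-13, 16.5% of features called higher), and under low phosphate it fell by 0.20 (limma, adjusted p = 2.41e-06, 24.2% called lower).

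On leaf IFS1, the same stresses acted downward or not detectably. It fell by 0.37 log2 units with salinity (limma, adjusted p = 2.16e-12, 31.9% of features called lower), by 0.32 with acidity (9.28e-11, 29.5%) and by 0.20 with water deficit (4.76e-06, 33.5%). The effect of low phosphate on IFS1 missed the threshold, with a 95% interval from -0.07 to 0.07 log2 units, in a comparison with 32.8% of features called. So 3 stresses had mean effects of opposite sign on the 2 genes in leaves, upward on IFS2 and downward on IFS1.

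Taken background by background, salinity was the stress with 1 direction on leaf IFS2. Every library with salinity lay above every library without it in 8 of 8 backgrounds, but the size ran from 0.07 log2 units with no other stress to 3.86 in the presence of acidity. The value of 0.07 is against the 2 control libraries, a change that limma did not call. How many of all features separate in this way was not counted, and 38.8% were called higher in the main effect of salinity. With salinity, IFS1 moved opposite to IFS2 in 7 of the 8 backgrounds, from -0.78 to 0.08. The other stresses changed direction for IFS2: acidity was positive in 5 of 8 backgrounds (-0.48 to 3.31), water deficit in 5 (-1.78 to 1.74) and low phosphate in 4 (-2.56 to 1.01). Water deficit also changed direction for IFS1, negative in 5 and positive in 3 of 8 backgrounds (-0.55 to 0.325), and acidity was negative for IFS1 in 7 (-0.79 to 0.37).

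**Figure D2:**
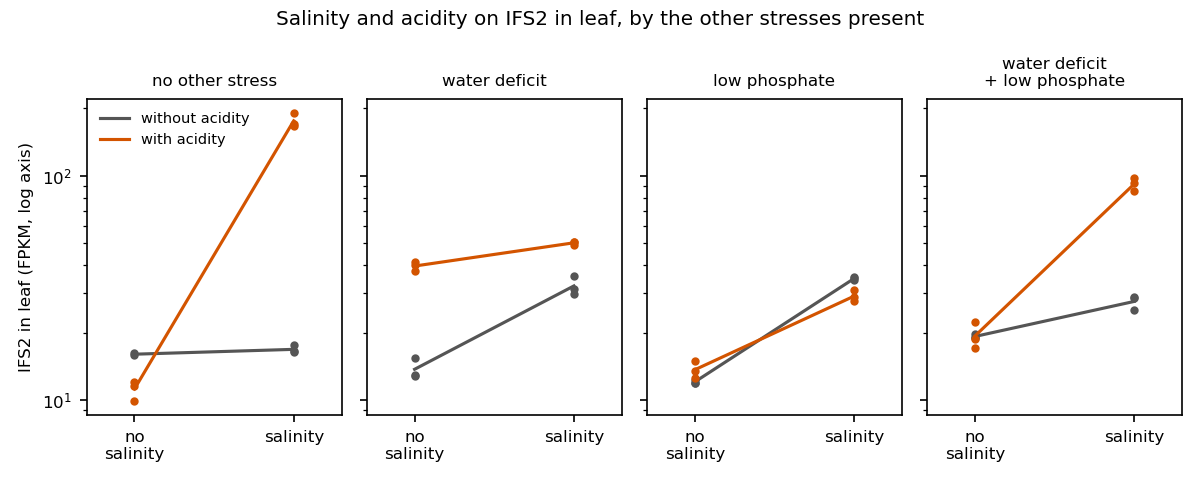
IFS2 in leaf (FPKM, log axis) without and with salinity, in the 4 backgrounds of the other stresses, with points for libraries and lines joining group means, grey without acidity and orange with it. The orange line is much steeper than the grey with no other stress and with water deficit plus low phosphate, and not steeper with water deficit alone or low phosphate alone.

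Pairs of stresses interacted strongly on leaf IFS2. An interaction is the effect of a stress with a second one present minus that without it, averaged over the other stresses. It was 1.06 log2 units for salinity and acidity (limma, adjusted p = 6.99e-18, 53.8% of features called) and -0.83 for acidity and low phosphate (limma, adjusted p = 6.33e-14, 36.5% called). Salinity and water deficit gave -0.55 (limma, adjusted p = 1.2e-09, 38.1% called), water deficit and low phosphate 0.44 (1.05e-07, 38.9%), and acidity and water deficit 0.27 (0.00329, 6.07%). For salinity and low phosphate the interaction was -0.06 (limma, adjusted p = 0.463, 30.8% called). That average joins changes of opposite sign. With no other stress, the salinity effect was 0.07 without low phosphate and 1.46 with it. In the same order it was 1.18 and 0.495 with water deficit, 3.86 and 1.04 with acidity, and 0.337 and 2.2 with both. The other interactions are averages of the same kind and need not hold in each background.

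On leaf IFS1, acidity and low phosphate interacted by 0.33 (limma, adjusted p = 0.00014), the sign opposite to that of IFS2. Calls of 0.22 for salinity and low phosphate, -0.23 for acidity and water deficit and -0.19 for water deficit and low phosphate each missed the threshold under at least 1 alternative. The interaction of salinity and acidity on IFS1 was 0.15 (limma, adjusted p = 0.0523).

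**Figure D3:**
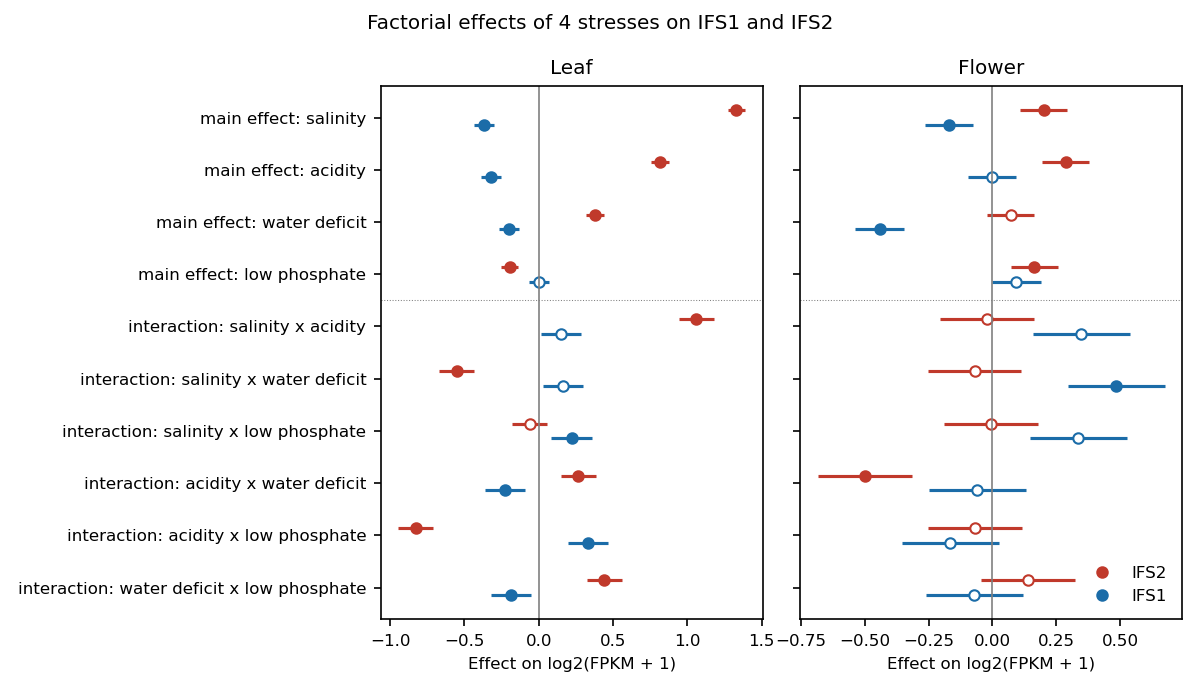
Main effects and pairwise interactions of the 4 factorial stresses on IFS2 (red) and IFS1 (blue), in log2(FPKM + 1) units with 95% intervals, in leaf (left) and flower (right, with IFS1 from the fit without a filter); filled points were called. In leaf the salinity effects stand at 1.33 for IFS2 and -0.37 for IFS1.

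How far a combination departed from the sum of its single stresses was then computed, as a comparison chosen after the values were seen. For leaf IFS2 the departure was positive and called in all 6 pairs and in the 4-stress combination, 7 of 7. In these 7 comparisons together, 19.5% of feature tests were called higher and 9.44% lower. It was 3.79 log2 units for salinity with acidity (SE 0.119, limma, adjusted p = 1.59e-26, 51.9% of features called), and 3.46 for the 4-stress combination (SE 0.241, adjusted p = 1.03e-14). Among the other pairs, acidity with low phosphate had the smallest departure (0.65) and acidity with water deficit the largest (1.95).

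For leaf IFS1 the departures were negative and called in 4 of those 7 combinations, with the lowest at -0.69 for water deficit with low phosphate (limma, adjusted p = 8.05e-05). For salinity with acidity it was -0.28 (limma, adjusted p = 0.0724), a value that passed the threshold with median ratio scaling, at -0.47. Of these departures, those of acidity with water deficit, salinity with low phosphate and salinity with water deficit were not called without replicate 1 or without replicate 2. All departures share the control libraries.

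A further stress on top of salinity with acidity was looked at next, again in comparisons chosen after the values were seen. That pair had the highest leaf mean of IFS2 and the lowest of IFS1. Any other group had to lie below it for IFS2 and above it for IFS1. The directions were thus fixed by the choice, the adjusted p-values are no support for them, and the sizes are given as a description. With low phosphate added IFS2 fell by 2.56 log2 units (limma, adjusted p = 4.16e-27, 43.2% of features called lower), and with water deficit added by 1.78 (adjusted p = 2.27e-21, 35.5%). When both were added the fall was smaller, 0.93 log2 units (limma, adjusted p = 2.35e-12, 28.0% called lower). On top of the same pair, IFS1 rose by 0.58 with low phosphate (limma, adjusted p = 3.12e-07, 21.4% called higher). Its changes with water deficit and with both were 0.03 each (limma, adjusted p = 0.776 and 0.796).

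Cadmium alone lowered leaf IFS1, from the 12.29 and 11.24 FPKM of the control to 7.339, 7.315 and 6.750 FPKM, with no overlap. The change was -0.65 (SE 0.099, limma, adjusted p = 7.6e-07, 47.2% of features called). On top of the other 4 stresses, cadmium raised IFS1 by 0.33 (limma, adjusted p = 0.00183) and IFS2 by 0.40 (adjusted p = 5.57e-05), a comparison in which 51.5% of features were called. The rise of IFS1 was not called without replicate 2. The effect of cadmium on IFS1 therefore differed between the settings by 0.98 log2 units (limma, adjusted p = 4.4e-08, 55.9% called). For IFS2 that difference was 0.21 with a 95% interval from -0.03 to 0.45 (limma, adjusted p = 0.141).

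In flowers IFS2 spanned a smaller range, with its lowest mean in the control. The control libraries held 4.137, 3.089 and 4.624 FPKM, and the highest group, acidity with low phosphate, held 8.612, 7.135 and 8.691 FPKM. Salinity with acidity gave 7.144, 7.62 and 8.362 FPKM, cadmium 7.758, 7.228 and 8.302 FPKM, and the 4-stress combination 7.33 and 8.346 FPKM. All these libraries lay above the control libraries, but overlapped with one another. Low phosphate alone gave 4.694, 3.251 and 5.11 FPKM and overlapped with the control.

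IFS2 was called higher than flower control in 14 of 17 treatments and lower in 0. All 17 comparisons share the same 3 control libraries, the group with the lowest mean. Over the 17 comparisons together, 5.85% of tests on the 33792 flower features were called higher and 3.68% lower. The largest change was 0.89 for acidity with low phosphate (SE 0.121, limma, adjusted p = 2.99e-06). The 3 treatments without a call were low phosphate (0.11), salinity with low phosphate (0.43, adjusted p = 0.0551) and salinity with water deficit (0.35, adjusted p = 0.108) by limma. The count was 9 when only the treatment and control libraries were fitted, 7 without replicate 2 and 9 without replicate 3. All 17 pairs of neighbours in the order of means overlapped, while groups farther apart in that order could be separate, such as acidity with low phosphate (7.135 FPKM or more) and low phosphate alone (5.11 FPKM or less). The libraries lay wholly above the controls in 16 treatments, and the same count over all features was not made.

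Main effects on flower IFS2 were 0.29 for acidity (limma, adjusted p = 2.22e-05, 12.7% of features called), 0.20 for salinity (0.00637, 3.98%) and 0.16 for low phosphate (0.0301, 4.23%). Water deficit had an effect of 0.07 with a 95% interval from -0.02 to 0.16 (limma, adjusted p = 0.308, 20.9% called). The calls of salinity and of low phosphate were lost whenever a replicate was left out. Of the 6 interactions, in which together 2.68% of feature tests were called, that of acidity and water deficit was called, at -0.50 (limma, adjusted p = 0.000213, 7.6% called), though not without replicate 3. For salinity and acidity, the pair that stood out in leaves, the flower interaction was -0.02 with a 95% interval from -0.21 to 0.16 (1.26% of features called).

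Cadmium alone raised flower IFS2 by 0.83 (limma, adjusted p = 2.22e-06, 30.2% of features called). On top of the other 4 stresses its effect was -0.04 (limma, adjusted p = 0.937, 0.503% called), where the 4-stress group had n = 2. The difference between the settings was -0.87 (limma, adjusted p = 0.00258, 3.78% called), and it was not called without replicate 2 or without replicate 3.

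**Figure D4:**
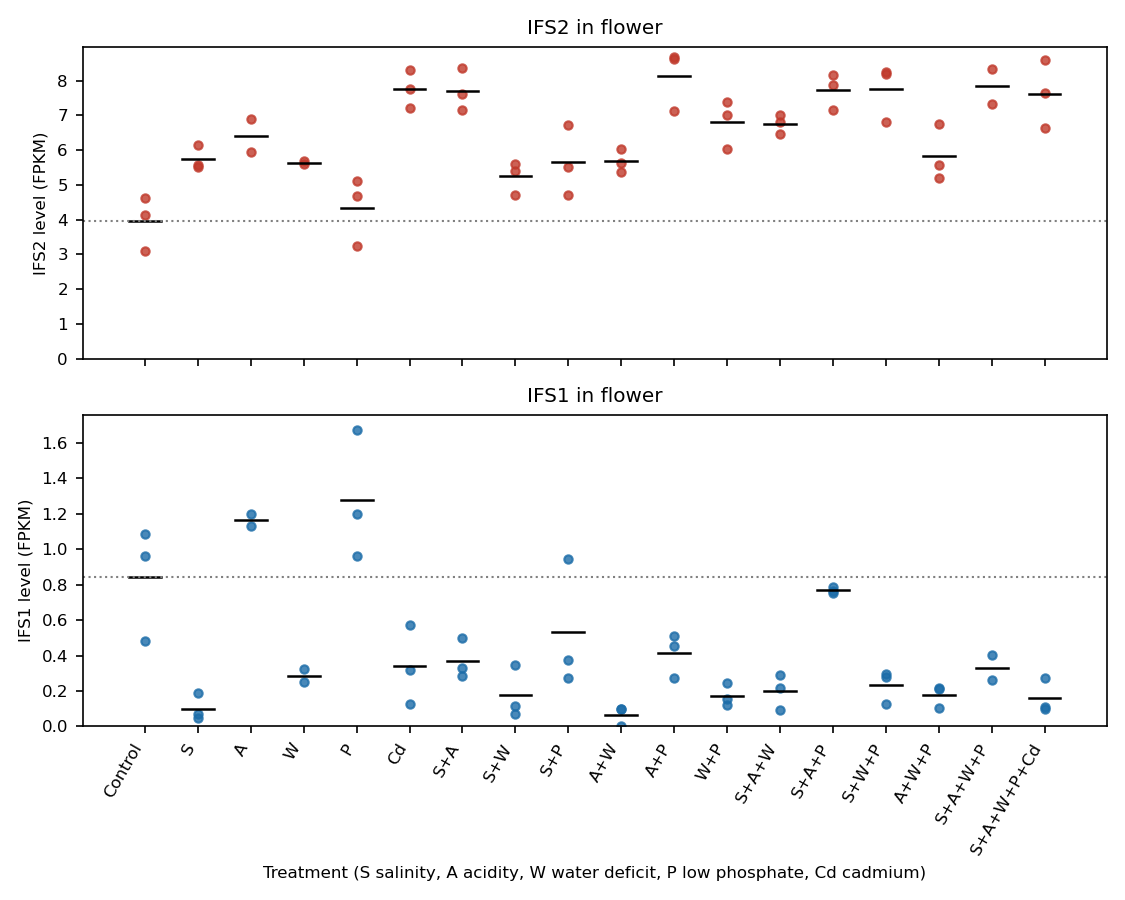
Levels of IFS2 (upper panel) and IFS1 (lower panel) in FPKM for the 18 flower treatments, with 1 point per library, a black line at the group mean and a dotted line at the control mean. IFS2 is lowest in the control at a mean of 3.95 FPKM, and IFS1 is at most 1.675 FPKM in any library.

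IFS1 was scarce in flowers, with a median of 0.2766 FPKM over 51 libraries and a highest value of 1.675 FPKM under low phosphate. Its low values rose in steps of about 0.0248 FPKM, as whole reads would give, with the step size chosen from these same values. The median library held 11 such steps. The control held 0.9608, 0.4833 and 1.088 FPKM, or 37, 18 and 43 steps, with replicate 2 well below the other 2. Acidity with water deficit was listed at 0, 0.1012 and 0.0999 FPKM, or 0, 4 and 4 steps. For the library at 0, the limit that a count of 3 steps allows is 0.0745 FPKM.

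Salinity alone gave 0.0453, 0.1892 and 0.0683 FPKM in flowers, or 2, 8 and 3 steps, all below the control libraries. Replicates 1 and 3 are at or under 3 steps, so no fold is given. Acidity alone (1.196 and 1.131 FPKM) and low phosphate alone (0.9646, 1.675 and 1.196 FPKM) were at or above the control level. Salinity, acidity and low phosphate together gave 0.7546, 0.7633 and 0.7884 FPKM, within the range of the control.

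The mean of IFS1 in flowers was under the limit of 1 FPKM for testing, so its tests come from a fit without that limit. There IFS1 was called lower than control in 11 of 17 treatments and higher in 0, where together 2.33% of feature tests were called lower and 3.89% higher. The count fell to 4 without replicate 1 and to 1 without replicate 3, so it rests on few libraries. These 17 comparisons, too, share the same 3 control libraries. Water deficit had the largest main effect, -0.44 (SE 0.047, limma, adjusted p = 1.06e-08, 14.8% of features called). It was negative in 7 of 8 backgrounds, from -1.02 to 0.09, and in 5 of them the libraries did not overlap. Some of these groups had n = 2 or held few reads, such as acidity with water deficit at 0, 4 and 4 steps. How many of all features separate in this way was not counted.

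Salinity lowered flower IFS1 by 0.17 (limma, adjusted p = 0.0400, 2.58% called), a call that was lost when any replicate was left out. Its direction was not shared by the backgrounds: it was negative in 4 and positive in 4 of 8, from -0.73 to 0.33, with the libraries wholly lower in 3 and wholly higher in 2. Here too, such separation was not counted over all features. The effect of acidity was -0.0018 with a 95% interval from -0.10 to 0.09 (8.25% of features called), and that of low phosphate was 0.09 with a limma adjusted p of 0.381 (2.73% called). Salinity and water deficit interacted by 0.48 (limma, adjusted p = 0.00257, 2.03% called, against 1.71% over the 6 interactions together). Without replicate 3 this call was lost. On this scale the fall of IFS1 with water deficit was on average smaller where salinity was present. Under salinity alone, however, IFS1 already stood at 2, 8 and 3 steps, which left little room for a further fall. The part of that in the interaction was not tested.

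The balance between the genes is described by the share of IFS2 in the sum of both. In leaves this share was 57.69% ± 1.88 in the control (SD, n = 2) and 49.09% ± 0.64 under low phosphate, so the genes were at similar levels. It rose to 96.78% ± 0.54 under salinity with acidity, 93.93% ± 0.11 in the 4-stress and 94.0% ± 0.14 in the 5-stress combination (SD, n = 3). In flowers IFS2 made up 82.86% ± 3.13 of the sum in the control. Its mean share was lowest under low phosphate, at 76.66% ± 9.29. It was highest under acidity with water deficit, at 98.87% ± 0.98, and next under salinity, at 98.33% ± 1.15 (SD, n = 3). The share under salinity rests on IFS1 at 2, 8 and 3 steps, so its exact size is uncertain. The share under acidity with water deficit, whose IFS1 includes a value of 0, was at least 98.24% in each library.

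**Figure D5:**
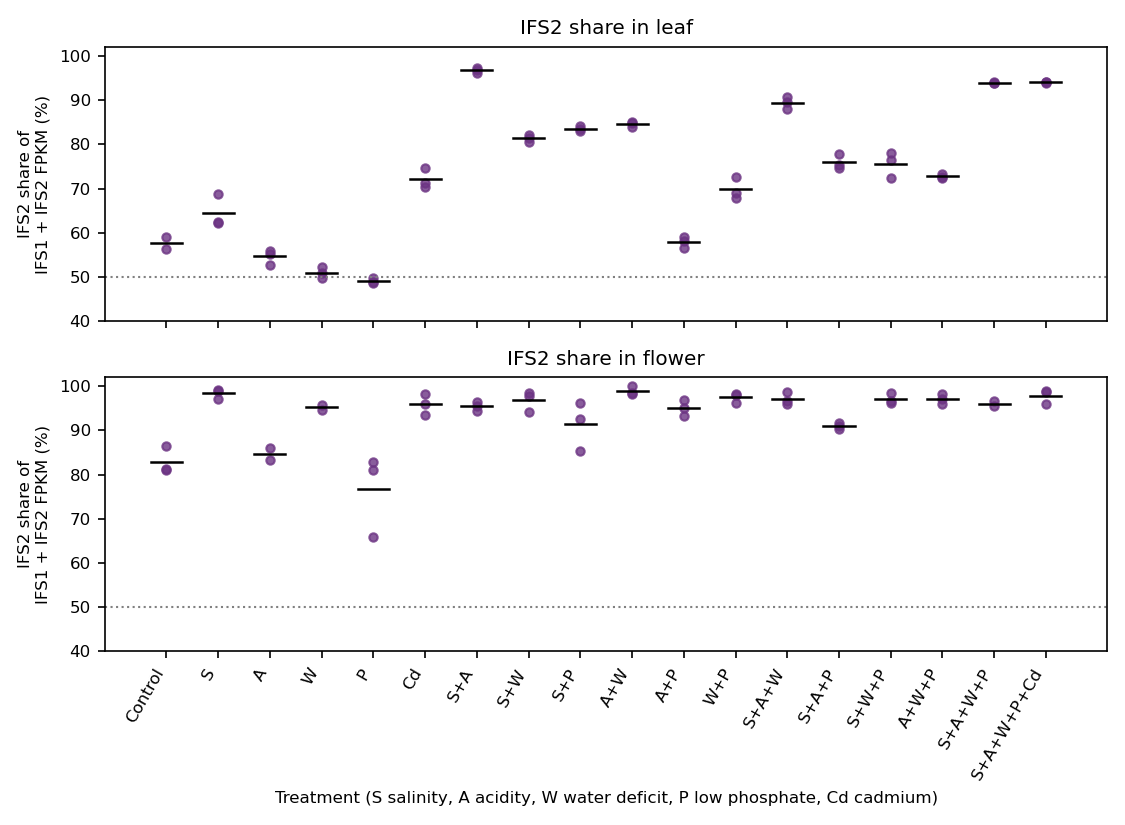
Share of IFS2 in the summed FPKM of IFS1 and IFS2, in percent, for the 18 treatments in leaf (upper panel) and flower (lower panel), with 1 point per library, a black line at the group mean and a dotted line at 50%; the axis starts at 40%. Leaf shares run from 49.09% under low phosphate to 96.78% under salinity with acidity.

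The summed level of the genes in leaves was 27.8 ± 0.52 FPKM in the control (n = 2) and 181.8 ± 11.9 FPKM under salinity with acidity (SD, n = 3). Acidity alone had the lowest sum, 20.49 ± 1.43 FPKM, where both genes were below control. In cadmium-treated leaves the sum was 25.62 ± 1.01 FPKM, near that of the control, while the share of IFS2 was 72.09% ± 2.33 (SD, n = 3). In flowers the sum varied 1.79-fold, from 4.794 ± 1.102 FPKM in the control to 8.56 ± 0.79 FPKM under acidity with low phosphate (SD, n = 3).

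Whether a stress moved the genes apart was tested within libraries, as the change of log2(IFS1 + 1) minus log2(IFS2 + 1), with a two-sided permutation test stratified by background and adjusted over 8 tests. In leaves the difference changed by -1.70 with salinity (adjusted p = 8e-05 from the smallest p the 100000 permutations can give), and by -1.14 with acidity (permutation, adjusted p = 8e-05). Water deficit gave -0.58 (permutation, adjusted p = 0.014), which was not called once any replicate was left out, and low phosphate 0.20 (adjusted p = 0.44).

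In flowers IFS1 also fell relative to IFS2. The change was -0.51 with water deficit (permutation, adjusted p = 0.000133), -0.37 with salinity (0.00134), -0.29 with acidity (0.0043) and -0.07 with low phosphate (0.457). With a pseudocount of 0.1 the sizes were -1.28 for water deficit (permutation, adjusted p = 8e-05) and -0.60 for salinity (0.0262). The call for acidity was lost with that pseudocount (permutation, adjusted p = 0.193) and without replicate 2 (0.0549). With cadmium alone against control the change was -0.84 in leaves and -1.29 in flowers. An exact permutation test gave p = 0.1 for each of these, the smallest p that group sizes of 2 or 3 against 3 allow.

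Effects in the tissues were compared as the effect in leaf minus that in flower, in 1 model over both. That model took leaf and flower libraries as independent, and whether they were paired was not examined. For IFS2 the leaf effect exceeded the flower effect by 1.13 log2 units for salinity (limma, adjusted p = 1.94e-31, 57.6% of features called), 0.53 for acidity (3.77e-14, 49.0%) and 0.31 for water deficit (1.9e-06, 36.2%). The difference went the other way for low phosphate, at -0.36 (limma, adjusted p = 4.63e-07, 17.7% called), and for cadmium alone, at -0.64 (0.000323, 47.3%). For the 5-stress combination the difference was 2.04 (limma, adjusted p = 1.63e-19, 47.3% called).

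For IFS1, from the fit without a limit on low values, the leaf effect lay below the flower effect for acidity, by -0.32 (limma, adjusted p = 3.15e-06, 34.0% called), and for salinity, by -0.20 (0.00336, 40.2%). It lay above for water deficit, by 0.24 (limma, adjusted p = 0.000709, 27.4% called). The low level of IFS1 in flowers compresses its changes on the log2(FPKM + 1) scale, so these differences depend on the pseudocount: with 0.1 in place of 1 the difference for salinity was -0.04 and not called.

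The features whose pattern over the 18 leaf treatments was most like that of IFS2 were found by Pearson r over group means of log2(FPKM + 1). The nearest was GLYMA_13G173400, the ID number just before that of IFS2, with r = 0.997 and means of 4.76 FPKM in the control and 50.2 FPKM under salinity with acidity. The other 4 of the 5 nearest had r between 0.987 and 0.99. High values were common, as 1527 of 28678 features had r of at least 0.9 with IFS2, against 20 with IFS1. The nearest to leaf IFS1 were GLYMA_09G176200 (r = 0.924), at 83.4 FPKM in the control and 17.6 under salinity with acidity, and GLYMA_07G119100 (r = 0.922), at 2.4 and 0.864 FPKM. In flowers 1 feature reached an r of at least 0.9 with IFS2, at 0.905.

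The features next to IFS2 by ID number were looked at after these values were seen. GLYMA_13G173400 stood at a near-constant ratio to IFS2 in leaves, between 0.232 and 0.392 of its level in all 53 libraries (median 0.313). In flowers that ratio spread wider, from 0.136 to 0.748 (median 0.308). Whether the annotations of the features overlap, so that they share reads, is not known here. GLYMA_13G173600, the next number after IFS2, rose from 0.405 ± 0.066 FPKM in the leaf control (n = 2) to 46.1 ± 9.34 FPKM under salinity with acidity (SD, n = 3), a change of 5.05 log2 units (limma, adjusted p = 9.11e-23). In the RefSeq table IFS2 lies between genes with the symbols IOMT1 and IOMT2, but the files do not link those symbols to IDs.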

How the data were processed

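RNA-seq values of 108 samples were used as FPKM, as the authors deposited them in 1 table per tissue. The submitters' processing notes name HISAT2 2.2.1. The counting tool, the build and the treatment of reads that match several places are not given in the sources used here. Groups came from the sample labels. IFS1 and IFS2, the lists and the comparisons were chosen with earlier results of these data known.

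The 4 averaged columns matched the mean of the other 2 columns within a relative difference of 1e-05 at no less than 99.794% of features above 0. In the other columns at most 0.0142% did so. The number of reads per library is unknown. Relative depth came from 4992 leaf and 4414 flower features, where 83.1% and 86.2% of low values lay within 0.1 of a whole step. For IFS1 in flowers, 23 of 23 libraries with up to 10 steps did. The step size was chosen there to bring these same values close to whole steps, so that match is no separate check. If a step is 1 read, the values of IFS1 in flowers rest on few reads.

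The 28678 leaf and 33792 flower features averaging 1 FPKM or more were tested. limma 3.58.1 (R 4.3.3) was fitted to log2(FPKM + 1), with trend and robust moderation, for the 18 groups of a tissue at once, or for the 16 of the factorial. Calls had an adjusted p under 0.05. The FPKM of IFS1 in flowers was under the limit, which the design had not foreseen, so its tests come from the fit of all features above 0. The scripts were tested on simulated data, with 200 features changed under salinity with acidity or under cadmium, against control. Changes of 0.5 log2 units were recovered for 40.5% to 44% of them, and changes of 1 for 85.5% to 91%. A missed threshold at such small sizes is therefore weak evidence of no change. No other feature differed between groups there, unlike in the data, so these shares need not hold here. The labels speak of biological repeats of pooled plants. Alternatives were a pseudocount of 0.1, no filter, scaling by the median ratio, the averaged columns counted as libraries, moderation without trend, a replicate block, each replicate left out, and fits of 2 groups only. Named genes other than IFS1 and IFS2 are those most like them by Pearson r, limited to those described, and ID neighbours. None of the feature IDs matched the RefSeq table (0 matches), and it gave no product names. The isoflavonoid pathway list and the tissue markers were therefore not used, and the tissue labels were not checked against markers. Tables and plots were made with matplotlib 3.10.9, numpy 2.4.6 and pandas 2.3.3 under Python 3.11.15.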

Additional observations from a re-analysis of the deposited data

Results flagged for a closer look

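The effects on IFS2 differed between leaf and flower in 6 comparisons tested in 1 limma model. The difference, as the effect in leaf minus that in flower on the log2(FPKM + 1) scale, was positive with water deficit (0.308), acidity (0.529) and salinity (1.13), and negative with low phosphate (-0.361). It was -0.643 for cadmium alone and 2.04 for the 5-stress combination, both against control.

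For IFS1, tested without a limit on low values, the effects differed for acidity (-0.323), salinity (-0.197) and water deficit (0.24). The difference for salinity was lost with a pseudocount of 0.1 and without replicate 3. The tissues come from tables normalized separately, and the part of that in the differences was not tested.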

How the results depend on the processing

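Of the values recomputed under the alternatives, 1273 kept their direction and their side of the threshold or, for counts, stayed within 1.5 times, while 104 fell short of the threshold, 26 came to pass it, 25 changed sign and 8 counts moved. None of the changes in sign was a call, and for those given here the cause was not tested. Replicate numbers showed no pairing of samples within a tissue. Deviations of libraries with the same number had a median correlation of 0.00224 in leaf and 0.00111 in flower. For libraries with different numbers the medians were -0.00108 and 0.00271. Pairing between leaf and flower libraries was not examined. The replicate block moved no count of calls by over 1.5 times. With it, the low phosphate effect on leaf IFS1 became 0.001196, the departure of leaf IFS1 under acidity with low phosphate -0.02031, and the flower IFS2 interaction of salinity and low phosphate 0.001566. With median ratio scaling, the first 2 became 0.05282 and -0.03938, and the difference of cadmium on top of 4 stresses against alone for leaf IFS2 became -0.02455. That scaling moved the median of all features by over 0.1 in some leaf comparisons, for example by 0.226 for acidity, water deficit and low phosphate.

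With a pseudocount of 0.1, the low phosphate effect on leaf IFS1 became 0.0004864, the acidity effect on flower IFS1 0.02948 and the leaf minus flower difference of cadmium for IFS1 0.4574. The change of IFS1 relative to IFS2 in flower became 0.175 for low phosphate and -0.302, no longer called, for acidity. With only 2 groups fitted, IFS2 was called higher in 9 flower treatments and lower in 0 leaf treatments.

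Leaving out each replicate in turn gave 7 to 12 higher calls of IFS2 in flower and 1 to 3 lower calls in leaf. Main effects on flower IFS2 then ran from 0.135 to 0.1836 for low phosphate and from 0.1829 to 0.2333 for salinity, and that of low phosphate on leaf IFS1 from -0.03104 to 0.04102. IFS1 relative to IFS2 ran from -0.602 to -0.568 for water deficit in leaf, and from -0.324 to -0.261 for acidity in flower. Ranges that crossed 0 for flower IFS1 were -0.1357 to 0.01565 (acidity and water deficit), -0.1415 to 0.04801 (water deficit and low phosphate), -0.014 to 0.007355 (acidity) and -0.1919 to 0.04462 (salinity, acidity and low phosphate against control). For flower IFS2 they were -0.1281 to 0.04628 (5 against 4 stresses), -0.09492 to 0.01922 (salinity and acidity), -0.06654 to 0.08423 (salinity and low phosphate) and -0.2055 to 0.1244 (salinity and water deficit). The departure of leaf IFS1 under acidity with low phosphate ran from -0.05779 to 0.07321, and the leaf minus flower difference of IFS1 in the 5-stress combination from -0.03726 to 0.1957. The alternative for the pathway list was not run, since the IDs carry no names.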
